A study of Drosophila melanogaster with 21 samples.

Results

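Fed heads of flies lacking Crtc were compared with fed heads of control flies, gene by gene. The comparison covers all 17559 gene identifiers of the authors' deposited table, chosen only because the table lists them, and it rests on 6 of the 21 samples of the series. Controls carry the label w1118, a stock named for a mutation of the eye-colour gene white, and the knockout is labelled crtc ko, with no further allele or background given. Each genotype gave 3 libraries of polyadenylated head RNA from flies 3 to 5 days old that had food at all times. Fasted heads, with 2 libraries of each genotype after 16 hours without food, were used to see which fed differences recur. In the labels' listing the third fed library of each genotype stands with a later set of samples, apart from the other two. The tables hold averages over libraries, so no value per library is shown. No label ties a replicate to its own batch of flies, and the spread behind the p-values may therefore be technical.

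Crtc is the fly's CREB-regulated transcription coactivator. CREB binds cAMP response elements in promoters, and Crtc joins it there once it is dephosphorylated and enters the nucleus, while salt-inducible kinases hold phosphorylated Crtc in the cytoplasm. In flies the coactivator is known for roles in neurons in energy balance, starvation resistance and memory. A fly head holds brain, retina, head fat body, muscle, glia, haemocytes and cuticle, so a change in a head library may come from any of these. Fewer cells of a type and less RNA per cell cannot be told apart here. The series title names one-carbon metabolism and insulin signalling as subjects, and both are described among other gene groups.

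Folds below are log2 folds of knockout over control in fed heads, as deposited, with their standard errors. They were shrunken towards 0 by the authors' DESeq2 run, most for genes with few reads. Estimated levels are normalized counts for each genotype, computed here from the base mean, which is the mean over the 6 libraries, and the fold after its shrinkage was removed. A gene is said to be called, to rise or to fall when its deposited adjusted p is under 0.05.

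The targeted gene was read first. Crtc (FBgn0036746, BDGP6.54 chromosome 3L, 17659818 to 17669234, minus strand, protein-coding) had a fold of -4.48 ± 0.26 in the authors' deposited table (adjusted p = 1.11e-63). The authors' deposited fasting tables average 5 libraries of 1 genotype, and there the base mean of Crtc was 339.7 for control and 0.36 for knockout. The genotype labels and the Crtc values thus go together. Genes that act with Crtc were not called: the CREB gene CrebB stood at -0.05 ± 0.16, the kinase genes Sik2 and Sik3 at 0.08 ± 0.15 and -0.11 ± 0.17, in the authors' deposited table. Of 25 tested genes of Crtc, CREB and cAMP signalling, Crtc was the only one called, and the highest fold was 0.20. The white gene w, whose product carries eye pigment precursors, was lower in knockout than in w1118 heads, at -2.42 ± 0.27 (adjusted p = 1.48e-16) in the authors' deposited table. The other pigment transporter genes st and bw stood at 0.49 ± 0.22 and 0.46 ± 0.18 in the authors' deposited table and were not called. Among 23 tested eye pigment genes, w was the only one called.

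Of 10285 genes with an adjusted p, 233 were higher and 256 lower in knockout heads in the authors' deposited table, so 489, or 4.75%, were called (2.27% higher, 2.49% lower). An absolute fold of at least 1 was reached by 213 of them, 90 higher and 123 lower, and the median absolute fold of the called genes was 0.94. The median fold of all tested genes was 0.00. The calls rest on a normal reference for the Wald score. With a t reference of 4 degrees of freedom (6 libraries less 2 groups), no gene was called, not even Crtc. The smallest adjusted p by that reference was 0.109, and 596 genes had an unadjusted p under 0.05. All 489 called genes are among them by construction, since both references rank genes by the same score. Its smallest unadjusted p was 2.58e-05. So few degrees of freedom leave no score far enough out for this many genes, and this reference cannot sort the calls.

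**Figure D1:**
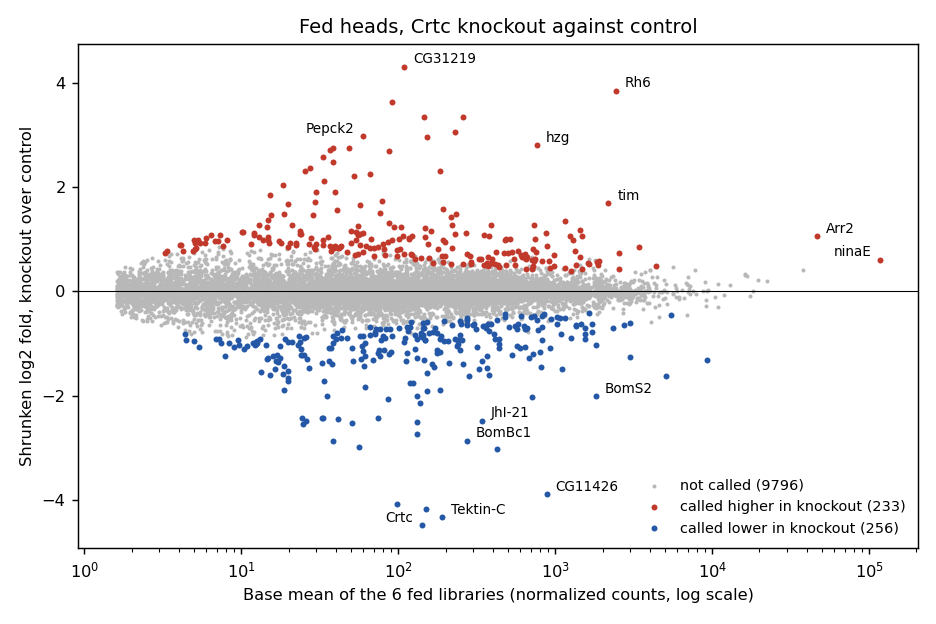
Shrunken log2 fold of knockout over control in fed heads (vertical axis) against the base mean of the 6 libraries on a log scale (horizontal axis); each point is 1 of 10285 tested genes, red called higher and blue called lower. Crtc and Tektin-C lie lowest, CG31219 and Rh6 highest, and the photoreceptor genes Arr2 and ninaE are the called genes farthest to the right.

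The largest rises at a base mean of at least 20 came from genes of many kinds. CG31219 (chromosome 3R, 19651018 to 19652430) led with a fold of 4.30 ± 0.26 (adjusted p = 1.73e-56), as the authors' deposited table gives it. Over 5 libraries of a genotype its base mean was 0.23 for control and 211.1 for knockout in the authors' deposited fasting tables. It overlaps CG6184 on the opposite strand, which had a fold of -0.09 in the authors' deposited table, and the strand setting of the counting is not given. CG31205 went from an estimated level of 31.4 in control to 484.5 in knockout heads. The neighbours CG6912 and asRNA:CR45600, which overlap on the same strand of chromosome 3R and can share reads, stood at 3.05 ± 0.19 and 3.62 ± 0.26 in the authors' deposited table. Srg3 rose from an estimated level of 12.1 to 293.1, and hzg (herzog), which encodes a phosphatase, from 141.8 to 1384. Osi2, of the Osiris family of membrane proteins, rose from under 5 to 70.6. Further rises of 2.47 or more were those of Obp57a, CG11052, CG8012, lncRNA:CR44043 and CG4962, and those of Rh6, CG8665 and Pepck2 are given with their pathways.

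Of the deepest falls after Crtc, Tektin-C, CG9150 and Obp46a were near 0 in knockout heads. Tektin-C, which encodes a filament protein of cilia and sperm tails (chromosome 3L, 5794405 to 5796543), had base means over 5 libraries of 480.7 for control and 4.81 for knockout in the authors' deposited fasting tables. CG9150 had 408.0 and 2.95, and the odorant-binding protein gene Obp46a 256.9 and 0.72, in the same authors' deposited tables. Their folds in fed heads were -4.33 ± 0.25, -4.16 ± 0.26 and -4.08 ± 0.26 in the authors' deposited table. CG11426 (chromosome 3L, 22470556 to 22473509), of the wunen-like lipid phosphate phosphatases, fell from an estimated level of 1680 to 79.9, with a fold of -3.89 ± 0.18 (adjusted p = 1.23e-95) in the authors' deposited table. It was the only one called of the 8 tested wunen-like genes, whose other 7 folds lay between -0.69 and 0.36 in the authors' deposited table. CG4757 fell from an estimated level of 786.8 to 58.3. JhI-21, an amino acid transporter gene, fell from 598.1 to 80.5. The long noncoding RNA genes lncRNA:CR45973 and lncRNA:CR32368, and the protein-coding CG42876 and CG34138, had folds from -2.87 to -2.52 in the authors' deposited table.

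Rhodopsin genes rose or were not called in knockout heads. Rhodopsins are the photoreceptors' light-absorbing receptors: ninaE encodes Rh1 of the outer photoreceptors, Rh3 to Rh6 serve the inner ones, Rh2 the ocelli. Of 7 rhodopsin genes tested, 4 rose, none fell and 3 were not called, with a median fold of 0.60. Rh6 (FBgn0019940, chromosome 3R, 15483158 to 15484699, plus strand) went from an estimated level of 236.0 in control to 4620 in knockout heads. Its fold was 3.85 ± 0.18 (adjusted p = 3.37e-102) in the authors' deposited table, the smallest adjusted p there. Rh5, which with Rh6 divides the inner photoreceptor R8 between ommatidial types, went from 780.4 to 1705, and Rh3 from 2356 to 4497, as estimated levels. The fold of ninaE was 0.60 ± 0.16 (adjusted p = 0.00695) in the authors' deposited table, from an estimated level of 91134 to 144078. Rh4, Rh2 and Rh7 stood at 0.41 ± 0.19, 0.34 ± 0.15 and 0.08 ± 0.17 in the authors' deposited table and were not called. Rh6 thus stood apart in size among the 7, while all 7 folds were above 0.

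Downstream of the rhodopsins the retina was mixed. Of 31 other phototransduction genes tested, 2 rose, 3 fell and 26 were not called, with a median fold of 0.15. The share called was 16.1%, next to 4.75% of all tested genes. Arr2, the arrestin that ends rhodopsin signalling, rose by 1.06 ± 0.14 (adjusted p = 2.07e-11) in the authors' deposited table, from an estimated level of 29039 to 63651. CarT, a transporter that recycles the photoreceptor transmitter histamine as carcinine, rose by 0.54 ± 0.17 (adjusted p = 0.0411) in the authors' deposited table. Hdc, the enzyme that makes histamine, fell by 0.70 ± 0.15 on the log2 scale (adjusted p = 0.000102) in the authors' deposited table, as did ninaG and ninaD, which serve the making of the visual chromophore, at -0.84 ± 0.18 and -0.82 ± 0.24. The phospholipase C gene norpA stood at 0.00 ± 0.22, and the channel genes trp and trpl at 0.31 ± 0.14 and 0.13 ± 0.15, in the authors' deposited table. The cyclophilin gene ninaA is listed at a base mean of 0, and whether it is silent or its reads were not counted was not tested.

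**Figure D2:**
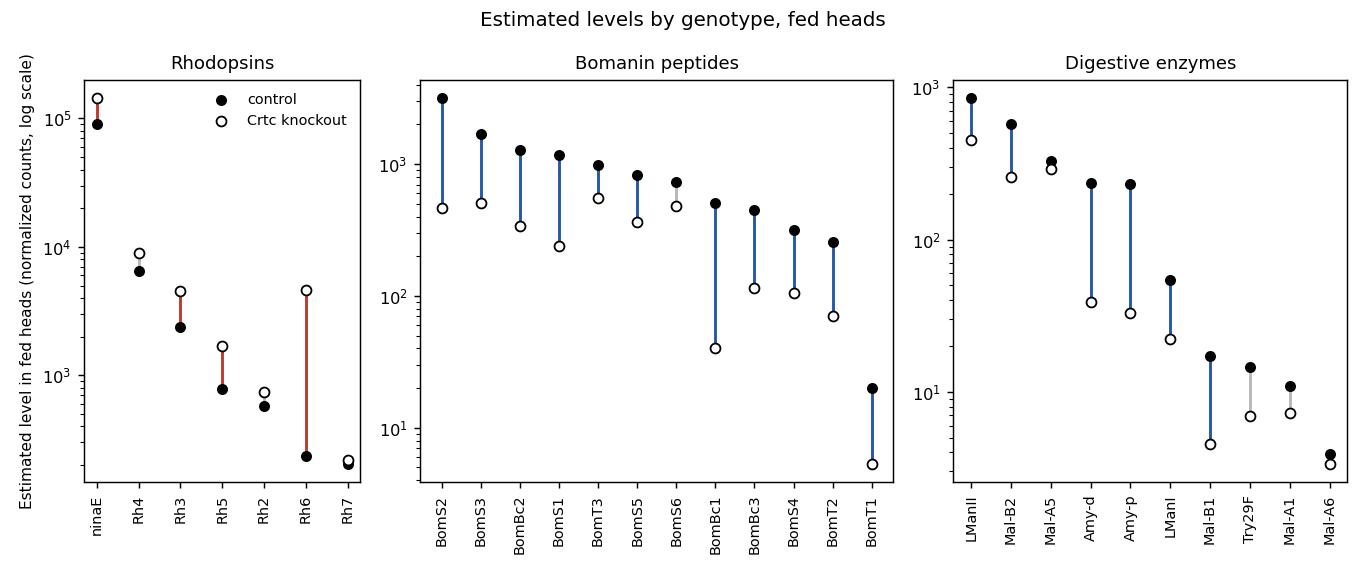
Estimated levels in fed heads (normalized counts, log scale) of each tested rhodopsin, Bomanin and digestive enzyme gene, with filled circles for control and open circles for Crtc knockout; the line joining them is red where the gene was called higher, blue where called lower and grey where not called. Rh6 has the longest line among the rhodopsins (236.0 to 4620), every Bomanin gene is lower in knockout, and the amylase genes Amy-d and Amy-p have the longest lines among the digestive enzymes.

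Immune effector genes of the Toll pathway were lower. Bomanins are short secreted peptides made in the fat body when Toll signalling is active. Of 12 Bomanin genes tested, 11 fell and none rose, with a median fold of -1.42. BomBc1 (chromosome 2R, 18382704 to 18383235) fell from an estimated level of 508.1 to 40.0, with a fold of -2.87 ± 0.24 (adjusted p = 1.01e-30) in the authors' deposited table. BomS2 fell from 3176 to 463.3, BomS1 from 1181 to 237.5 and BomS3 from 1705 to 511.0, as estimated levels. BomS6, the only one not called, stood at -0.52 ± 0.20 (adjusted p = 0.146) in the authors' deposited table. The cluster of 10 Bomanin genes on chromosome 2R thus held 9 of the 11 falls, and BomT3 and BomBc3 lie on chromosome 3R. These short genes are close relatives and lie close together, and how reads that fit several copies were counted is not given.

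Other immune peptides followed less evenly. Among 19 antimicrobial peptide genes tested, 4 fell and 1 rose (26.3%, next to 4.75% of all tested genes), with a median fold of -0.40. Another 2 names of the list, Drs and BaraA2, matched no symbol and are not analysed here under those names. These counts therefore leave them out. Drsl4, a drosomycin-like gene, fell from an estimated level of 317.8 to 52.3, and Drsl5 from 611.0 to 260.5. The daisho genes Dso1 and Dso2, whose peptides act against filamentous fungi, had folds of -1.02 ± 0.26 and -1.28 ± 0.20 (adjusted p = 0.00316 and 1.65e-08) in the authors' deposited table. Def, the defensin gene, rose by 1.14 ± 0.28 (adjusted p = 0.00253) in the authors' deposited table, and it overlaps magu on the opposite strand. The attacin genes AttA and AttB stood at -0.50 ± 0.25 and -0.71 ± 0.27 in the authors' deposited table and were not called. Among 31 genes of immune recognition and signalling, PGRP-SD, a secreted receptor for peptidoglycan, fell from an estimated level of 258.9 to 76.9 and the serpin gene Spn88Eb from 88.6 to 33.8. The Toll transcription factor gene dl rose by 0.52 ± 0.16 (adjusted p = 0.0342) in the authors' deposited table, and 28 genes were not called. The share called in that list was 9.68%. TotM, a stress-induced Turandot gene, had a fold of -2.48 ± 0.28 (adjusted p = 6.86e-16) in the authors' deposited table, and 3 other tested Turandot genes were not called.

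Sting, the sensor of cyclic dinucleotides in antiviral defence, fell from an estimated level of 232.6 to 30.1 (fold -2.50 ± 0.21, adjusted p = 5e-31, in the authors' deposited table). The gene cGlr2, which encodes a cGAS-like enzyme that makes such dinucleotides, was picked after its values were seen. It had a fold of -1.71 in the authors' deposited table.

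Genes of the digestive enzyme list had folds below 0 throughout, and 6 of 10 fell (60%, next to 4.75% of all tested genes). Among these falls are the lysosomal mannosidase genes LManI and LManII. Amylases cut starch and maltases cut the products to glucose; in flies both are best known from the gut, and part of the foregut lies in the head. None of the 10 tested genes rose, and the median fold was -0.79. Amy-d and Amy-p, near-identical copies on chromosome 2R that can share reads, fell from estimated levels of 236.5 and 230.7 to 38.7 and 32.9. The fold of Amy-d was -2.14 ± 0.22 (adjusted p = 1.73e-19), and the adjusted p of Amy-p was 3.21e-12, in the authors' deposited table. The maltase genes Mal-B2 and Mal-B1, which overlap Pde1c on the opposite strand, had folds of -0.92 ± 0.23 and -1.06 ± 0.29, and the lysosomal mannosidase gene LManI one of -0.86 ± 0.27, in the authors' deposited table. The gut proteases Jon25Bi and Jon65Aiii are listed at a base mean of 0, and of 31 listed genes 11 are. That does not show that these genes are silent. The glucosidase gene tobi, a target of the brain's insulin-producing cells, had in the authors' deposited table a fold of -2.99 ± 0.26 (adjusted p = 9.65e-28).

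In one-carbon metabolism, 2 enzyme genes were called. The folate cycle carries single carbons for purines, thymidylate and methionine. CG8665, which encodes the formyltetrahydrofolate dehydrogenase that releases such a carbon as carbon dioxide, rose from an estimated level of 14.7 to 276.7, with a fold of 3.34 ± 0.24 (adjusted p = 1e-42) in the authors' deposited table. Nmdmc, the mitochondrial methylenetetrahydrofolate dehydrogenase, fell from 236.3 to 70.2, with a fold of -1.56 ± 0.18 (adjusted p = 2.32e-15) in the authors' deposited table. Nmdmc shares its strand and part of its span with Rel, which had a fold of -0.20 in the authors' deposited table. The other 8 tested genes of the folate cycle and glycine cleavage were not called. The share called in this list was thus 20%, next to 4.75% of all tested genes. None of 12 methionine cycle and sarcosine genes, 10 purine synthesis genes, 4 pyrimidine synthesis genes or 3 serine synthesis genes was called in fed heads. Lists this short would hold few or no calls at the share of all genes, so this says little about them as groups. Sam-S, which makes S-adenosylmethionine, stood at -0.41 ± 0.15 (adjusted p = 0.104), Gnmt at -0.45 ± 0.28, Sardh at -0.32 ± 0.26 and Ahcy at 0.20 ± 0.24 in the authors' deposited table.

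Most genes of the insulin lists were not called, though the share called in each was above the 4.75% of all tested genes. The peptide genes Ilp2, Ilp3 and Ilp5 of the brain's insulin-producing cells stood at 0.30 ± 0.16, -0.23 ± 0.22 and 0.17 ± 0.27 in the authors' deposited table, none of them called. CCHa2, a hormone known to act on those cells, rose from an estimated level of 493.6 to 1254 (fold 1.12 ± 0.21, adjusted p = 1.18e-05, in the authors' deposited table). The satiety peptide gene fit fell from 238.9 to 116.2 (fold -0.80 ± 0.24, adjusted p = 0.0227, in the authors' deposited table). Those were the only calls among 17 genes of insulin-like peptides and secreted modulators, or 11.8%. Of 22 genes of insulin, FOXO and TOR signalling, tobi and the translation inhibitor gene Thor fell, Thor by 0.67 ± 0.16 (adjusted p = 0.00133) in the authors' deposited table, and 20 were not called. The share called in that list was 9.09%. Another 2 names of that list matched no symbol and are not analysed here.

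In fuel metabolism single genes were called, to be read next to 4.75% of all tested genes. With 1 call each, the share was 5.88% in glycolysis and gluconeogenesis and 5.56% in fatty acid oxidation. It was 5.88% in lipid synthesis (1 of 17), 7.69% in trehalose and glycogen metabolism (1 of 13) and 8.33% in lipolysis (1 of 12). Amino acid catabolism had 11.8% (2 of 17) and fat body storage genes 33.3%, with 2 rises and 1 fall among 9. Pepck2, a phosphoenolpyruvate carboxykinase at the entry to gluconeogenesis, rose from an estimated level of 7.06 to 112.9 and was the only one called of 17 tested genes of glycolysis and gluconeogenesis. Its paralog Pepck1 is listed at a base mean of 0, which does not show that it is silent. The carnitine palmitoyltransferase gene whd, which lets fatty acids into mitochondria, fell by 0.71 ± 0.17 (adjusted p = 0.00168) in the authors' deposited table. It was the only call among 18 genes of mitochondrial fatty acid oxidation, of which 15 had folds below 0 and the median was -0.15. The lipase gene CG5966 fell from 55.3 to 19.2 as an estimated level, while the brummer lipase gene bmm stood at -0.44 ± 0.17 (adjusted p = 0.147) in the authors' deposited table. The fatty acid synthase gene FASN2 rose from under 5 to 19.6, and the glycogen synthase gene Glys fell by 0.44 ± 0.14 (adjusted p = 0.0463) in the authors' deposited table. Among 17 genes of amino acid catabolism, the transaminase genes Oat (-1.14 ± 0.23) and Bcat (-0.80 ± 0.18) fell in the authors' deposited table. The storage protein genes Lsp2 and Lsp1beta, made by fat body, rose from estimated levels of 92.8 and 709.1 to 339.7 and 2162. Lsp1gamma fell, from 12.5 to under 5. The lipoprotein gene apolpp of the same tissue stood at -0.11 ± 0.21 in the authors' deposited table.

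Clock and peptide genes held several rises. The share called was 16.7% of clock genes and 15.2% of peptide genes, next to 4.75% of all tested genes. Pdf is counted in both lists. The clock gene timeless, tim (chromosome 2L, 3493986 to 3508119), whose protein with that of per represses the clock's own activators, went from an estimated level of 972.2 to 3378. Its fold was 1.69 ± 0.14 (adjusted p = 5e-31) in the authors' deposited table. The repressor gene vri and the peptide gene Pdf of the pacemaker neurons rose by 0.58 ± 0.15 and 0.53 ± 0.17 (adjusted p = 0.00308 and 0.0324) in the authors' deposited table. The other 15 of 18 clock genes were not called, per at 0.30 ± 0.20 and Clk at 0.25 ± 0.22 in the authors' deposited table. Times of day at which heads were taken are not given, and their part in the clock values was not tested. Besides CCHa2 and Pdf, the peptide genes Dsk (drosulfakinin) and Nplp4 rose, by 0.67 ± 0.14 and 0.93 ± 0.29 in the authors' deposited table. AstA fell by 0.55 ± 0.17 (adjusted p = 0.0263) there, and 28 of 33 tested peptide genes were not called. One transmitter receptor gene of 42 was called, the serotonin receptor gene 5-HT2A at 0.62 ± 0.17 (adjusted p = 0.00628) in the authors' deposited table. Among 9 activity-regulated genes, Arc1 and kay rose and CG14186 fell (33.3%), while Hr38 and sr were not called.

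Markers of head cell types did not move together. None of 19 neuronal and synaptic genes was called, elav standing at 0.05 ± 0.24 and nSyb at 0.02 ± 0.13 in the authors' deposited table, and their summed estimated level was 57991 in control and 61466 in knockout heads. Of 15 glial genes, 5 fell and none rose, with a median fold of -0.29 and summed estimated levels of 10579 and 8622. The share called was 33.3%, next to 4.75% of all tested genes. Those that fell were alrm, an astrocyte membrane protein (fold -1.32 ± 0.18, adjusted p = 2.2e-11, in the authors' deposited table), whose gene overlaps Fur1 on the same strand, the astrocyte GABA transporter gene Gat, the blood-brain barrier transporter gene Mdr65, the amine-conjugating enzyme gene e and axo. The general glial markers repo, Gs2 and Eaat1 stood at -0.09 ± 0.19, -0.22 ± 0.14 and -0.20 ± 0.18 in the authors' deposited table and were not called. Muscle genes gave 4 rises and 1 fall among 28 (17.9%), led by Act88F and Mlp60A, with Mhc at 0.22 ± 0.16 in the authors' deposited table and a summed estimated level of 35398 against 37968. Haemocyte genes gave 3 rises among 11 (27.3%): the crystal cell prophenoloxidase PPO2 from 49.7 to 137.1, and NimC1 and Sr-CI. Their summed estimated level was 2850.4 against 2423, and the haemocyte marker Hml stood at 0.15 ± 0.22 in the authors' deposited table. Of the 9 listed germ line and egg markers, only betaTub85D had an adjusted p, and it stood at -0.18 in the authors' deposited table. Germ line and egg genes outside that list were not gathered, so no statement is made about them. The sex of the flies is not given in the labels used here. The female-biased yolk protein genes Yp1, Yp2 and Yp3 stood at 0.63 ± 0.26, 0.21 ± 0.26 and 0.54 ± 0.22 in the authors' deposited table and were not called, and the sex-determination gene dsx rose by 0.68 ± 0.19 (adjusted p = 0.0105) there.

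**Figure D3:**
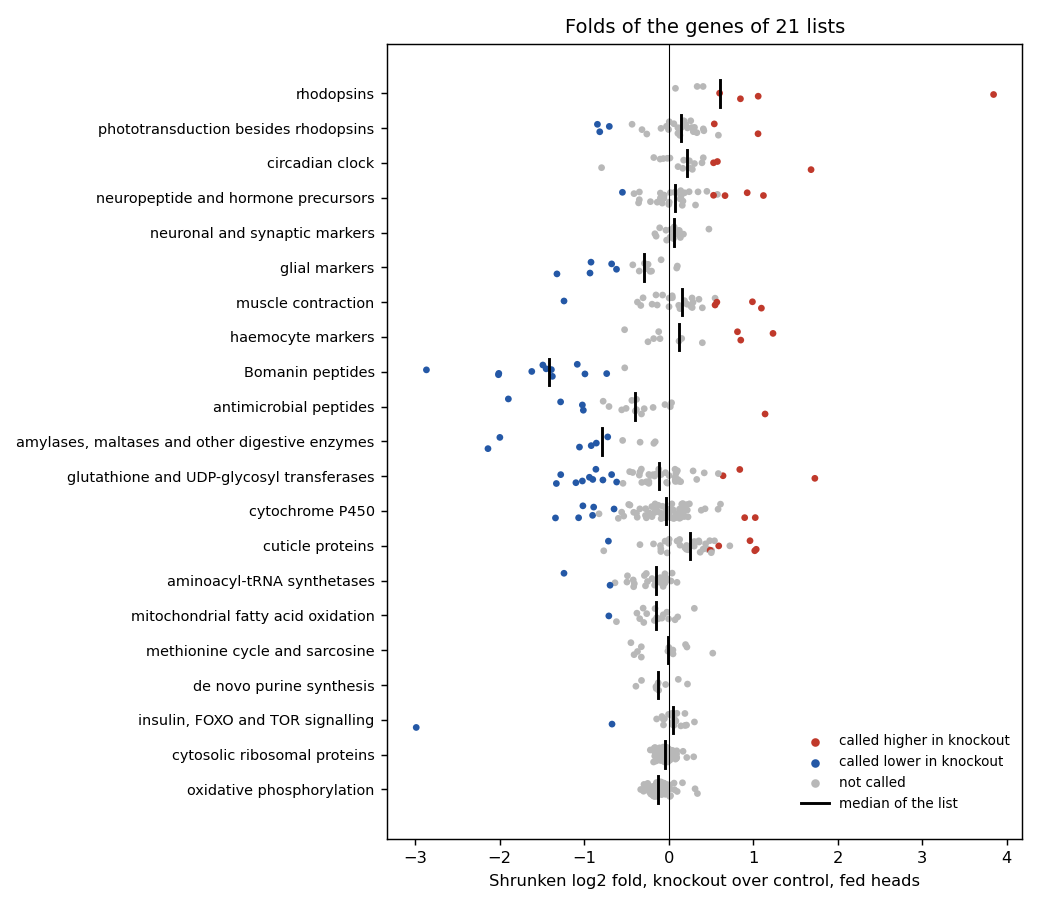
Shrunken log2 folds of knockout over control in fed heads for the tested genes of 21 lists; each point is a gene, red called higher, blue called lower and grey not called, and the black bar is the median of the list. The Bomanin median is lowest at -1.42, followed by digestive enzymes at -0.79, and rhodopsins have the highest at 0.60, while ribosomal protein and oxidative phosphorylation genes lie close to 0 with none called.

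Detoxification genes were called more often as lower than as higher in fed heads. Calls in fasted heads rest on fewer libraries. Of 51 glutathione and UDP-glycosyl transferase genes tested in fed heads, 10 fell and 3 rose, with a median fold of -0.12. The share called was 25.5%, next to 4.75% of all tested genes. In fasted heads 3 of 49 were higher and 1 was lower. The difference between the fed and the fasted fold, tested below, passed the threshold at 1 gene of this list. GstD9, GstD1, GstD2 and GstD3 lie side by side on chromosome 3R and all fell, with folds between -1.28 and -0.68 in the authors' deposited table. GstE1 fell from an estimated level of 182.7 to 71.4 and Ugt35A1 from 78.9 to 24.4, while Ugt35C1 rose from 28.4 to 128.8. These families hold close copies, and reads that fit several may be divided among them. Among 75 cytochrome P450 genes, 6 fell and 2 rose in fed heads (10.7%), with a median fold of -0.03. In fasted heads 8 were higher and 7 lower, and the difference between the 2 folds passed at 1 P450 gene. Cyp9f3, Cyp9b2 and Cyp6a20 had folds of -1.34 ± 0.26, -1.07 ± 0.21 and -1.02 ± 0.18, and Cyp9h1 one of 1.02 ± 0.23, in the authors' deposited table. Odorant-binding protein genes split evenly: Obp57a and Obp56a rose and Obp46a and Obp28a fell among 26 tested (15.4%).

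Cuticle protein genes gave 5 rises and 1 fall among 37 (16.2%, next to 4.75% of all tested genes), with a median fold of 0.26, led by Cpr11B at 1.04 ± 0.29 (adjusted p = 0.00906) in the authors' deposited table. Among 31 aminoacyl-tRNA synthetase genes, which charge transfer RNAs for translation, LysRS and MetRS fell and 28 had folds below 0, with a median of -0.15. LysRS went from an estimated level of 540.2 to 198.2 (fold -1.24 ± 0.20, adjusted p = 8.01e-08, in the authors' deposited table). Hsp67Bc, a small heat shock protein gene, had a fold of -1.76 ± 0.21 (adjusted p = 3.94e-15) in the authors' deposited table, the only call among 20 genes of the ATF4, unfolded protein and heat shock list. Among 449 long noncoding and antisense RNA genes tested, 8 rose and 13 fell, or 4.68%, next to 4.75% of all tested genes. No gene was called among 79 cytosolic and 70 mitochondrial ribosomal protein genes, 68 oxidative phosphorylation genes and 31 proteasome genes, whose median folds lay between -0.12 and 0.05 in the authors' deposited table. Dividing the Wald scores by their central spread of 0.907 brought 2 of the mitochondrial ribosomal genes past the threshold as lower.

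Whether the fed differences recur was read in fasted heads, in libraries the fed comparison did not use. There 5.39% of 9917 tested genes were called, 3.43% higher and 1.97% lower, in the authors' deposited table of fasted heads. Among 9832 genes tested in both, 118 were higher in both, which is 50.9% of the 232 fed rises and 35.0% of the 337 fasted rises. Another 124 were lower in both, 48.4% of the 256 fed falls and 64.2% of the 193 fasted ones. Of the fed rises 230 of 232 kept their sign in fasted heads, and of the fed falls 229 of 256 did, next to 67.1% of all genes. No fed rise was called lower in fasted heads, while 5 fed falls were called higher. Of the 15 largest fed rises, 15 were called higher in fasted heads too, and of the 15 largest fed falls 13 were called lower, all but BomBc1 and TotM. Rh6 stood at 3.55, CG31219 at 4.57, Tektin-C at -4.54 and CG11426 at -4.29 in the authors' deposited table of fasted heads.

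The difference between the fed and the fasted fold was then tested gene by gene, as a normal score with p-values adjusted over the 8557 genes that both tables give a base mean of 10 or more. The 2 tables share no library. It passed the threshold at 78 genes, or 0.912%, 11 (0.129%) with a higher and 67 (0.783%) with a lower fold in fed heads. Of the 11, 8 were not called in fed heads and lower in fasted ones. Of the 67, 36 were not called in fed heads and higher in fasted ones, 17 were lower in fed heads and not called in fasted ones, and 5 were lower in fed and higher in fasted heads. With a t reference of 6 degrees of freedom none passed, the smallest adjusted p was 0.217 and 188 genes had an unadjusted p under 0.05.

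The fall of the Bomanins was larger in fed than in fasted heads for 6 of the 12, and for 5 with unshrunken folds, BomBc1 being lost. BomS1 stood at -2.01 ± 0.19 in fed and -0.11 ± 0.21 in fasted heads in the authors' deposited tables, a difference of -1.91 ± 0.28 (normal test, adjusted p = 1.42e-08). BomS3 stood at -1.49 ± 0.20 and 0.17 ± 0.20, with a difference of -1.66 ± 0.28 (adjusted p = 2.4e-06), in the authors' deposited tables. BomT2 fell in fed heads and rose in fasted ones, at -1.39 and 0.71 in the authors' deposited tables. BomBc3, BomS4 and BomS5 were lower in both, and the test of their differences did not pass the threshold. The identifier FBgn0010381 took no symbol or position from the annotation used here, so its gene is not named. FBgn0010381 had the largest difference of all, at -1.05 ± 0.29 in fed and 2.32 ± 0.21 in fasted heads in the authors' deposited tables. The astrocyte gene alrm stood at -1.32 ± 0.18 in fed and 0.19 ± 0.24 in fasted heads in the authors' deposited tables, with a difference of -1.51 ± 0.30 (adjusted p = 0.000128). Among muscle genes, 4 were higher in fed and 16 in fasted heads, but the difference passed at 1 of them, Mlc2.

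Metabolic genes and their hormonal signals were among those that differed. CCHa2 rose by 1.12 ± 0.21 in fed and by 3.38 ± 0.20 in fasted heads in the authors' deposited tables (difference -2.26 ± 0.29, adjusted p = 1.05e-11). The satiety gene fit was lower in fed heads, at -0.80 ± 0.24, and higher in fasted ones, at 1.57 ± 0.36, in the authors' deposited tables. The lipid droplet gene Lsd-1 and the P450 gene Cyp4e3 stood at -0.07 ± 0.29 and 0.43 ± 0.23 in fed heads, not called, and at 2.79 ± 0.23 and 3.60 ± 0.18 in fasted ones, in the authors' deposited tables. The purine synthesis gene Pfas went the other way, at -0.15 ± 0.18 in fed and -2.74 ± 0.19 in fasted heads in the authors' deposited tables (difference 2.59 ± 0.26, adjusted p = 1.35e-19). The secreted brakes on insulin action, Lst and ImpL2, stood at 0.09 ± 0.25 and -0.42 ± 0.19 in fed heads, not called, and at -1.84 ± 0.21 and -2.06 ± 0.22 in fasted ones, in the authors' deposited tables. Sardh, of the sarcosine branch of methionine metabolism, stood at -0.32 ± 0.26 and -1.73 ± 0.22 in the authors' deposited tables. Its difference of 1.40 ± 0.35 (adjusted p = 0.00898) passed with the shrunken and not with the unshrunken folds. Of the one-carbon and insulin genes named, Pfas, Sardh, Lst and ImpL2 were not called in fed heads, while CG8665, Nmdmc, CCHa2, fit, Thor and tobi were.

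**Figure D4:**
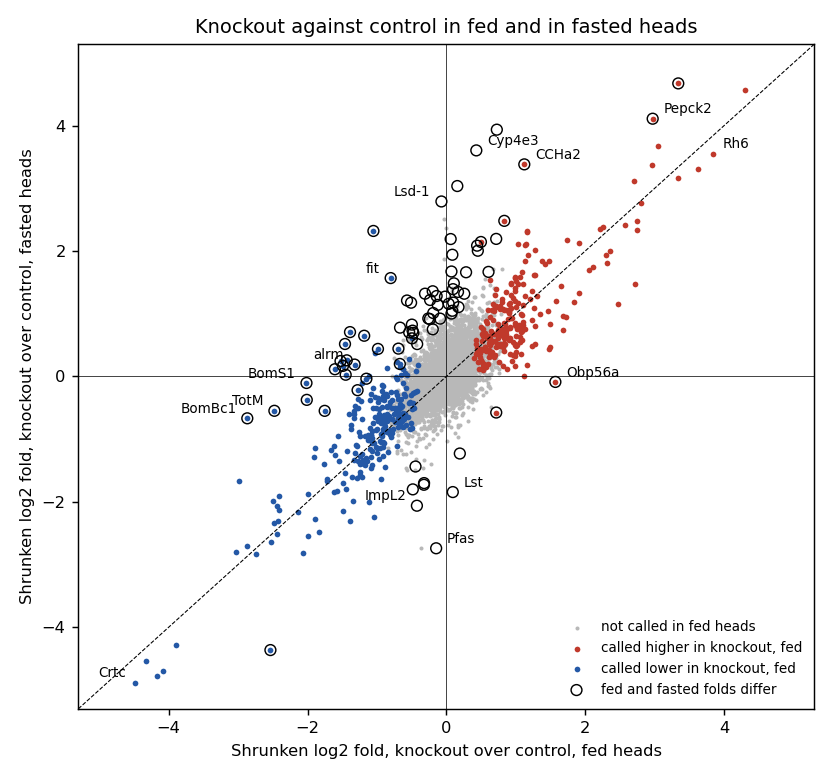
Shrunken log2 folds of knockout over control in fasted heads (vertical axis) against those in fed heads (horizontal axis); each point is a gene with an adjusted p in both tables, red and blue mark fed calls, black circles mark genes whose 2 folds differ past the threshold, and the dashed line marks equal folds. Rh6 and Crtc lie near the dashed line, BomS1 and alrm are called lower in fed heads and lie near 0 in fasted ones, and CCHa2, Lsd-1 and Cyp4e3 lie far above the line.

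Called genes lay on all chromosomes, with lower shares on the X and on chromosome 4 than on the large autosome arms. The share called was 6.14% on 2L, 5.67% on 2R, 4.91% on 3L and 4.87% on 3R, and 5.35% over these 4 arms. It was 2.27% on the X (38 of 1674 genes) and 1.04% on chromosome 4 (1 of 96). The annotated genes nearest to Crtc, 5 on either side, were not called or had no adjusted p. Among them CG7484 stood at 0.26 ± 0.19 and Ccn at 0.20 ± 0.18 in the authors' deposited table. Within 250 kb, 3 of 59 tested genes were called, or 5.08%, next to 4.75% of all tested genes. All 3 were lower: the olfactory ionotropic receptor genes Ir75a and Ir75b at -2.44 and -2.42, and CG5535 at -1.09, in the authors' deposited table. The share was 6.74% from 250 to 1000 kb, 6.41% from 1000 to 3000 kb and 4.32% farther out on 3L. Of 484 called genes with a position, 116 stood next to another called gene among the tested genes, in 50 runs. Of these runs 42 were pairs, and 31 of the 50 went in 1 direction. How many runs as many genes placed at random would form was not computed. Some runs hold overlapping genes or close copies, which can share reads. The longest run, of 9, was the Bomanin cluster, and all of it was lower (chromosome 2R, 18381393 to 18390242).

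**Figure D5:**
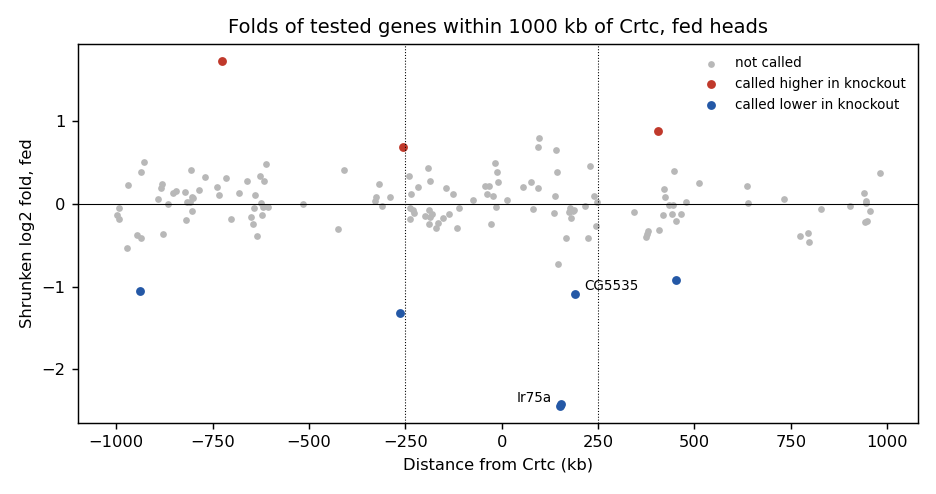
Shrunken log2 fold in fed heads (vertical axis) of each tested gene within 1000 kb of Crtc against its distance along chromosome 3L (horizontal axis, kb), red called higher, blue called lower and grey not called, with Crtc itself left out. Dotted lines mark 250 kb, inside which Ir75a, Ir75b and CG5535 are the genes called.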

How the data were processed

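Polyadenylated RNA of fly heads was sequenced by the submitters from NEBNext Ultra libraries, per the labels' protocols. Tools named in the submitters' processing notes are DESeq2, Cuffdiff, STAR and TopHat2, and builds dm6 and dm3, with no versions or roles. Aligner, build and strand setting behind the tables are not given in the sources used here. Per the file headers, each deposited table gives per gene a base mean, a signal averaged over the libraries of the comparison. The authors deposited a log2 fold with its standard error, also on the log2 scale. A Wald score, a p-value and an adjusted p-value were deposited too, the last for those genes only that the authors' DESeq2 run kept. The base means sum to 3465010 normalized counts per fed library; depth per library is unknown.

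The standard errors reach a ceiling of 0.288, the form a normal prior on the folds gives, and the prior was removed from each fold through that ceiling. Levels from the unshrunken folds matched those of the fasting tables within a median of 0.004 on the log2 scale over 324 called genes with an unshrunken fold under 4 in absolute value. Of 11 called genes past 4, the 4 with a lower level of at least 10 lay within 0.38 and the other 7 up to 3.99 apart, so estimated levels under 10 are less sure. Of 17559 identifiers, 17253 took a symbol and a position from Ensembl (release 115, BDGP6.54) and 306 did not; coordinates are 1-based. The tables' names number libraries otherwise than the labels, which was read as a renumbering without the CREB mutants.

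A call is a deposited adjusted p under 0.05. Fed and fasted folds were compared as their difference over the root of the summed squared errors (Python 3.11.15, SciPy 1.17.1), two-sided normal p, Benjamini-Hochberg adjusted, and the scripts were tested on simulated data. The text names Crtc, the 15 largest folds in each direction among genes called at a base mean of 20 or more, up to 5 called and 4 uncalled genes of each list, the 6 largest fed minus fasted differences in each direction and the 5 neighbours of Crtc on either side. Exceptions chosen after their values were seen are cGlr2, Ir75a, Ir75b, CG5535, BomT2, BomS4, BomS5, BomT3, GstD9, GstD1, GstD3, LManII, Rel, CG6184, the overlapping genes and those of the last observations. The comparison, the lists and their members were chosen with earlier results of these data known, so their counts are descriptions beside the share of all tested genes. Gene lists had no set test, and 20 of their entries matched no symbol and are not analysed here. No sequence is shown.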

Additional observations from a re-analysis of the deposited data

Results flagged for a closer look

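Genes named in the report or by its rule whose knockout fold differed between fed and fasted heads by the normal test of the difference itself (fed minus fasted, adjusted p under 0.05) are gathered here with that difference on the log2 scale, computed from the authors' deposited tables. Differences below 0 mean a lower fold in fed heads. Immune genes of this kind were BomBc1 at -2.20, BomS1 at -1.91, BomS3 at -1.66, BomS2 at -1.64, Dso2 at -1.06, the serpin gene Spn88Eb at -1.42 and the Turandot gene TotM at -1.93. In metabolism and its signals the differences were -2.37 for fit, -2.26 for CCHa2, -0.87 for Thor, -2.86 for Lsd-1, -1.33 for CG8665 and -1.14 for Pepck2. Cyp4e3 stood at -3.17, CG10962 at -3.21, CG43402 at -2.88 and FBgn0010381, with no symbol, at -3.37. The astrocyte gene alrm differed by -1.51, the myosin light chain gene Mlc2 by -0.95 and Jheh1, a juvenile hormone epoxide hydrolase gene, by -0.96.

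A higher fold in fed heads was seen for the purine synthesis gene Pfas at 2.59, the insulin-restraining genes Lst at 1.94 and ImpL2 at 1.64, Sardh at 1.40 and the desaturase gene Desat1 at 0.99. CG42876 differed by 1.83, the odorant-binding protein gene Obp56a by 1.66, the Turandot gene TotC by 1.42 and the wunen-like gene CG11425 by 1.32. CG8665, Pepck2 and CCHa2 rose in both feeding states and CG42876 fell in both. The fed and fasted folds were shrunken with different priors, of standard deviation 0.576 and 0.718 on the log2 scale. With unshrunken folds the difference of CCHa2 still passed at -2.33, while those of CG8665, Pepck2 and CG42876 did not, at -1.15, -0.48 and 1.88.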

How the results depend on the processing

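In fed heads 233 genes were called higher and 256 lower, and 213 had an absolute fold of at least 1. At a threshold of 0.01, 148 were higher, and with a base mean of at least 50 there were 154 higher and 130 past the fold. With unshrunken folds 320 were past the fold. With a t reference all of these counts fell to 0, as did those shared with fasted heads (118 and 124 as reported) and those of the fed minus fasted difference (11 higher and 67 lower as reported), since few degrees of freedom leave no score far enough out for this many genes. The difference gave 7 higher with unshrunken folds, and 7 higher and 44 lower at a threshold of 0.01. Centring the folds, dividing the Wald scores by their central spread and adjusting over all genes with a p-value kept every one of these counts within 1.5 times, and 489, 489 and 451 of the 489 calls. No named gene or difference reversed under any alternative run. Of 119 named calls, 22 were lost at 0.01 and 9 when adjusted over all genes (Glys, LManI, Cyp12c1, CarT, e, Act87E, NimC1, Sr-CI and Cpr47Ee). Of 29 named differences, 8 were lost with unshrunken folds (CG8665, Pepck2, BomBc1, CG42876, Sardh, Thor, Obp56a and CG11425). The causes were not tested. Of 143 list medians under alternatives, 9 moved by more than 0.1. No paired analysis was possible because the tables hold no values per library, and leaving out each replicate was not run for that reason. Promoter motifs were not analysed here.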

Other observations

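Genes outside the lists were also called, and those given here were picked after their values were seen. The photolyase gene phr, which repairs ultraviolet damage to DNA, fell from an estimated level of 63.1 in control to 7.65 in knockout heads, and the neprilysin-like peptidase gene Nepl4 had a fold of -2.06 in the authors' deposited table. The serine protease homolog gene SPH93 had a fold of -2.44 in fed and -2.52 in fasted heads in the authors' deposited tables. CG2233 fell from 8093 to 1989, and the noncoding RNA gene lncRNA:noe from 13710 to 4927, as estimated levels. IntS12, of the Integrator complex, rose from 15.3 to 117.0, and Ada2a, an adaptor of histone acetyltransferase complexes, from 21.4 to 93.3. In fasted heads IntS12 stood at 2.39 and Ada2a at 1.44 in the authors' deposited table, and both were called higher there too.

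Achl, whe and lcs were lower in fed heads and not called in fasted ones. Achl fell from an estimated level of 555.5 to 183.0 in fed heads, and its fed and fasted folds of -1.46 and 0.52 in the authors' deposited tables differed by -1.98 ± 0.26 (normal test, adjusted p = 1.7e-11). The difference was -1.77 ± 0.40 for whe and -1.69 ± 0.42 for lcs.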
